A study of Mus musculus with 2 samples.

Results

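The enzymes that make sterols and fatty acids, with the SREBP regulators that control them, were examined in RNA from mouse small intestine. The set held 33 genes, named by symbol: 16 of sterol synthesis, 13 of fatty acid synthesis and 4 regulators. They were found on the array by the gene name of each probe or by the current symbol of its accession, which gave 65 of the 41174 probes. Of the 33 genes, 32 were measured, through 59 probes, among 17041 measured genes in all. A gene was measured when a probe was well above background on both arrays in at least 1 diet. The remaining gene, Pnpla3, which encodes a lipid droplet protein with lipase activity, had 64 and 71.9 intensity units in FAF and 64.9 and 66.9 in Conv, and neither diet brought it well above background.

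The mice were of the C57BL/6 strain, 6 to 8 weeks old. One group received a food antigen-free diet (FAF) that supplied amino acids, and was held on it for up to 5 generations. The other received conventional chow (Conv). Specific-pathogen-free (SPF) and germ-free (GF) animals both occur in the labels, with no word on which of them gave this RNA, and neither the number of mice nor the segment of intestine is given in the sources used here. The comparison covers every difference between the diets, including fat and sterol content, for which no composition was used here.

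Total RNA of each diet was hybridised to 2 Agilent whole-genome arrays with 2 colours, FAF in Cy5 and Conv in Cy3 on one array and the dyes exchanged on the other. By their labels the arrays carry the same RNA pair, which leaves 1 RNA sample per diet, and no test between diets was possible. Values below are log2 ratios of FAF over Conv, averaged over the arrays, and the ± sign gives the distance of either array from that mean. This distance reflects the dyes and the hybridisation, and variation among animals is not in it. It had a median of 0.04 over the 32 members and 0.06 over all measured genes. A rule of size was applied: a gene counted as higher or lower when the ratio averaged 2-fold or more and both arrays gave 1.5-fold or more the same way. By this rule 263 of 17041 genes, or 1.54%, were higher in FAF and 151, or 0.886%, were lower. No spot was saturated. Markers of absorptive enterocytes were measured for 15 of 15 listed genes. Those of smooth muscle were measured for 8 of 8 and those of fat tissue for 13 of 15. Detection alone therefore does not single out a cell type in this RNA.

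SREBPs are transcription factors made as precursors in the endoplasmic reticulum membrane. When sterols are scarce, the escort protein SCAP carries them to the Golgi, where proteases release the active part. When sterols are plentiful, INSIG proteins hold SCAP back. SREBP-2, from Srebf2, mainly drives cholesterol synthesis and uptake, whereas SREBP-1c, from Srebf1, mainly drives fatty acid synthesis, and Srebf1 itself is induced by the oxysterol receptor LXR. In the intestine, sterols and fatty acids also arrive from the lumen, and synthesis of cholesterol is strong in the crypts.

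SREBPs bind sterol regulatory elements in promoters together with the factors NF-Y, which recognises CCAAT boxes, and Sp1, which recognises GC boxes. Promoter windows from RefSeq (GRCm38.p6), running from 250 bases before to 50 bases after a start of transcription, were held for 26 of the 33 genes and searched on both strands. Scd1, Scd2, Sqle, Fads1, Fdps, Fdft1 and Stard4 were not searched. The 200 bases before the start are shown for 3 sterol genes, 2 fatty acid genes and 2 of the starts of Srebf1, as examples of windows that hold CCAAT boxes and of 1, the last, that holds none. Capitals mark matches to the sterol regulatory element TCACNCCAC and to CCAAT, read on either strand (ATTGG is CCAAT on the other strand).
Hmgcs1, chr13:119690151-119690350, plus strand: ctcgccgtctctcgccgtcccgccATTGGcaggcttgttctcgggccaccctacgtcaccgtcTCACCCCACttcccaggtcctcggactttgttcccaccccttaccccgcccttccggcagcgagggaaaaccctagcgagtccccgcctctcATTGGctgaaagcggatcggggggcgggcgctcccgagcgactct
Mvk, chr5:114444069-114444268, plus strand: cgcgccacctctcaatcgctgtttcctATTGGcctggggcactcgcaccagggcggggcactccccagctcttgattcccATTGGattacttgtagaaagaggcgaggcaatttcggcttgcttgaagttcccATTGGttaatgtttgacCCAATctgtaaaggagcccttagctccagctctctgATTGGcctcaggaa
Msmo1, chr8:64733579-64733778, minus strand: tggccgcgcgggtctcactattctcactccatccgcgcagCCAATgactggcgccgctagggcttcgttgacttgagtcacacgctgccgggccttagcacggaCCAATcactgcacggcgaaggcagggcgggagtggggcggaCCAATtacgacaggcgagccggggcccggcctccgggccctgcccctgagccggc
Fasn, chr11:120824548-120824747, minus strand: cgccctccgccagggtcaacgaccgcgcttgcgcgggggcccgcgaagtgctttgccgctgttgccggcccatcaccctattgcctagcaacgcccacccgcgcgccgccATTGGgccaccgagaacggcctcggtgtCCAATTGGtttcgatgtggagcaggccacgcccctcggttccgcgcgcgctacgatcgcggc
Thrsp, chr7:97417551-97417750, minus strand: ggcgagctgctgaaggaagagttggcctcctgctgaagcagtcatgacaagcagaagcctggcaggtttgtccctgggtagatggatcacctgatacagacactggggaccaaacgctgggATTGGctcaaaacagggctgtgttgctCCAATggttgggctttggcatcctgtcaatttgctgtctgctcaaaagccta
Srebf1, chr11:60210472-60210671, minus strand: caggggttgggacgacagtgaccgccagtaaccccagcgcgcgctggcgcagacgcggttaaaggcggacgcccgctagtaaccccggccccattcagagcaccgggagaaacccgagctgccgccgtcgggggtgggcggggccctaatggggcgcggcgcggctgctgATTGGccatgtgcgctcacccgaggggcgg
Srebf1, chr11:60220628-60220827, minus strand: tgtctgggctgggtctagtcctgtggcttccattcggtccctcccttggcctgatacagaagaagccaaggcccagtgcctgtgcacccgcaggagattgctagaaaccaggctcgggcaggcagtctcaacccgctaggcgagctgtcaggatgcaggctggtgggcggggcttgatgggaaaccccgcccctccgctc

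Among the 12 sterol synthesis genes with a window, 11 held a CCAAT box, or 91.7%, and 7 of 10 fatty acid synthesis genes did, or 70%, beside 41.1% of the 27025 genes with a window. GC boxes (GGGCGG) were found in 11 of 12 sterol genes, or 91.7%, in 5 of 10 fatty acid genes, or 50%, and in 38.2% of all genes. The sterol regulatory element matched in 1 of the 26 members searched, Hmgcs1, at 137 bases before the start (-137), and in 1.44% of all genes. E-boxes (CACGTG) were found in 2 of 12 sterol genes, 1 of 10 fatty acid genes and 8.09% of all genes. The LXR element of the DR4 type, a direct repeat of AGGTCA with a spacer, had no match in a member searched and 5 among 32851 windows. None of these motifs contains another, though neighbouring matches can share end bases. A match is a description of these windows and not a site of binding. The sterol regulatory element was searched only as TCACNCCAC, and the LXR element only as an exact repeat. Diverged forms of either were not searched. A missing match therefore does not show that a window lacks either element, in Srebf1 or in other members.

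**Figure D1:**
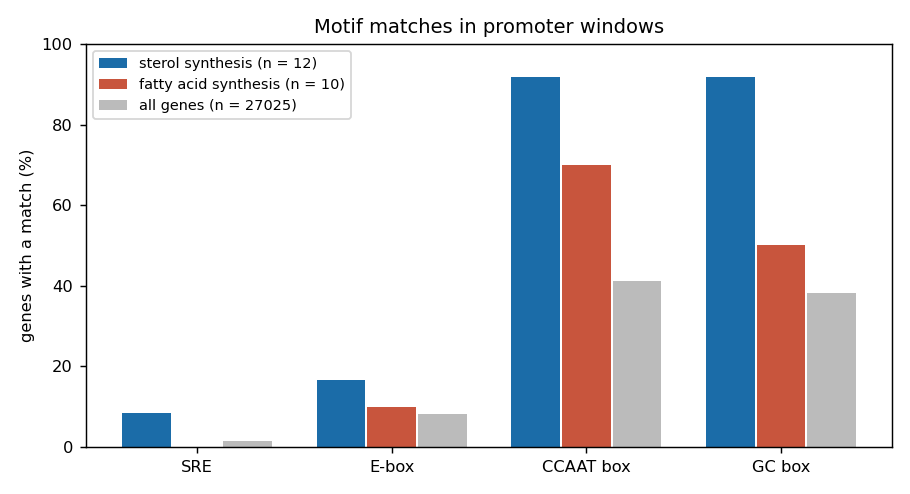
Share of genes, in percent, whose promoter window holds each motif, for sterol synthesis genes, fatty acid synthesis genes and all genes with a window. CCAAT boxes stand at 91.7% in sterol genes, 70% in fatty acid genes and 41.1% in all genes.

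Of the 4 regulators, Srebf1 was higher in FAF and the other 3 did not pass the rule. The Srebf1 probe (mm9, chr11:60013214-60013273) read 16197 and 16897 intensity units in FAF RNA, against 6919 and 7147 in Conv RNA. The intensities of the diets did not overlap, and the ratio was 1.23 ± 0.01, or 2.35-fold. This was the highest ratio among the 32 members, and it lay at percentile 99 of all measured genes. The 2 values of a diet are the same RNA in 2 dyes, so a lack of overlap, here and below, does not speak to variation among animals. Agreement of this kind was usual, as 31 of the 32 members had the same sign on both arrays. It is not particular to the members, since the arrays correlated at 0.90 (Pearson) over all measured genes. The shares of all genes with the same sign, or without overlap, were not computed. Whether the single probe reads the transcripts of every start of Srebf1 was not tested.

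Srebf2, the precursor of SREBP-2, had 7535 and 7126 units in FAF and 8723 and 7751 in Conv, a ratio of -0.17 ± 0.04. Its 4 probes ran from -0.26 to 0.07. Scap, the escort protein, had 5156 and 4878 units in FAF and 6222 and 5688 in Conv, a ratio of -0.25 ± 0.02. Insig1, the sterol-regulated retention protein and a target of SREBP, had 346 and 355 units in FAF and 276 and 293 in Conv. Its ratio of 0.30 ± 0.02, with 0.14 on the other probe, was opposite in sign to that of Srebf2 and Scap. None of these 3 genes reached 1.5-fold.

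**Figure D2:**
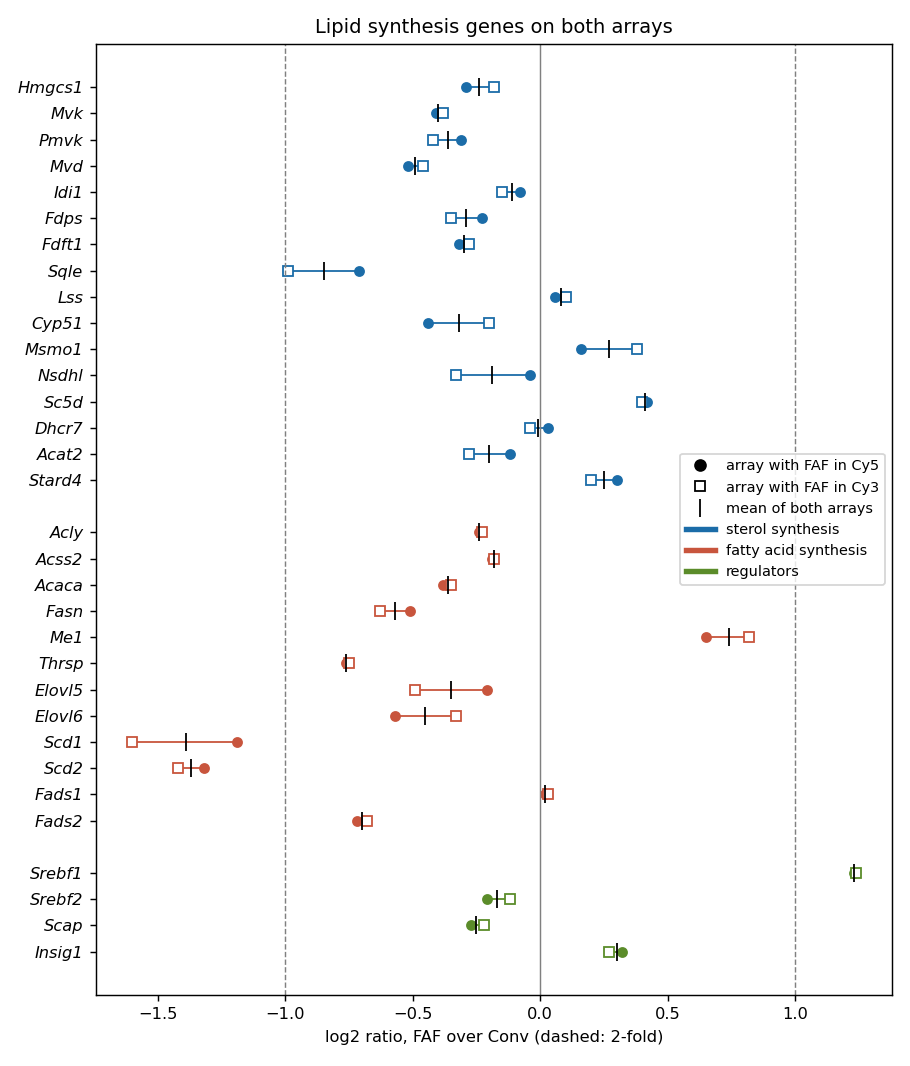
Log2 ratio of FAF over Conv for the 32 measured genes (x axis), by gene (y axis). Filled circles and open squares are the arrays with FAF in Cy5 and in Cy3, ticks their mean, and dashed lines mark 2-fold. Srebf1 at 1.23 lies beyond the upper line, and Scd1 at -1.39 and Scd2 at -1.37 lie beyond the lower one.

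Fatty acid synthesis genes were below 0 in 10 of 12 measured cases, with a median of -0.41, beside a median of 0.00 over all measured genes. By the rule of size 2 were lower, the desaturases Scd1 and Scd2, and 0 were higher. Most of the set thus had ratios opposite in sign to that of Srebf1. Without the 2 desaturases the median over 10 genes was -0.36.

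Scd1, the stearoyl-CoA desaturase that makes oleate and palmitoleate, had 400 and 337 units in FAF, against 910 and 1020 in Conv. The diets did not overlap, and the ratio was -1.39 ± 0.21, or 2.62-fold lower in FAF. The arrays differed more for Scd1 than for any other member, at -1.19 with FAF in Cy5 and -1.60 with FAF in Cy3. Scd2, a desaturase of the same activity that is best known from brain and from the developing mouse, had 1065 and 1157 units in FAF, against 2657 and 3105 in Conv. Its ratio was -1.37 ± 0.05, or 2.59-fold lower. The genes have 1 probe each, on chr19:44469387-44469446 for Scd1 and chr19:44381024-44381083 for Scd2 (mm9). At best 21 of 60 bases match between these probes when they are aligned without gaps, and their longest shared run is 6 bases. With median centring in place of loess, Scd1 and Srebf1 kept their sign but missed the 1.5-fold limit on 1 array each, at -0.57 and 0.48. Scd3 and Scd4, other members of the family, were not well above background.

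The other desaturases act on polyunsaturated fatty acids. Fads2, the delta-6 desaturase, had 547 and 531 units in FAF and 903 and 853 in Conv, a ratio of -0.70 ± 0.02. Fads1, the delta-5 desaturase of the same pathway, had 441 and 455 units in FAF and 436 and 445 in Conv, with a ratio of 0.02 ± 0.01. The gap between the ratios of these desaturases was larger than the distance between arrays for either gene. The elongases Elovl6, which extends palmitate to stearate, and Elovl5, which acts on polyunsaturated chains, stood at -0.45 ± 0.12 and -0.35 ± 0.14. Elovl6 had 1505 and 1605 units in FAF and 2242 and 2024 in Conv, and Elovl5 had 1357 and 1273 in FAF and 1564 and 1792 in Conv, with no overlap for either.

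Of the core enzymes, the fatty acid synthase Fasn had 8099 and 7649 units in FAF and 11566 and 11828 in Conv, a ratio of -0.57 ± 0.06. Acaca, the acetyl-CoA carboxylase that supplies malonyl-CoA, had a ratio of -0.36 ± 0.02 on a probe of 170 and 177 units in FAF, and 0.00 on another measured probe close to background. Acly and Acss2, which make acetyl-CoA from citrate and from acetate, stood at -0.24 ± 0.01 and -0.18 ± 0.01. Thrsp, or Spot 14, a nuclear protein that promotes lipogenesis, had 265 and 276 units in FAF and 449 and 465 in Conv, a ratio of -0.76 ± 0.00. These enzymes and Thrsp were all lower in intensity in FAF on both arrays, and none reached 2-fold.

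Me1, the malic enzyme that supplies NADPH to fatty acid synthesis, went the other way. It had 702 and 651 units in FAF and 446 and 368 in Conv, a ratio of 0.74 ± 0.08, with 0.57 ± 0.14 on its other probe. This was 1.67-fold, short of the rule, at percentile 97.2 of all measured genes. Me1 and Fads1 were the 2 measured fatty acid synthesis genes above 0.

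**Figure D3:**
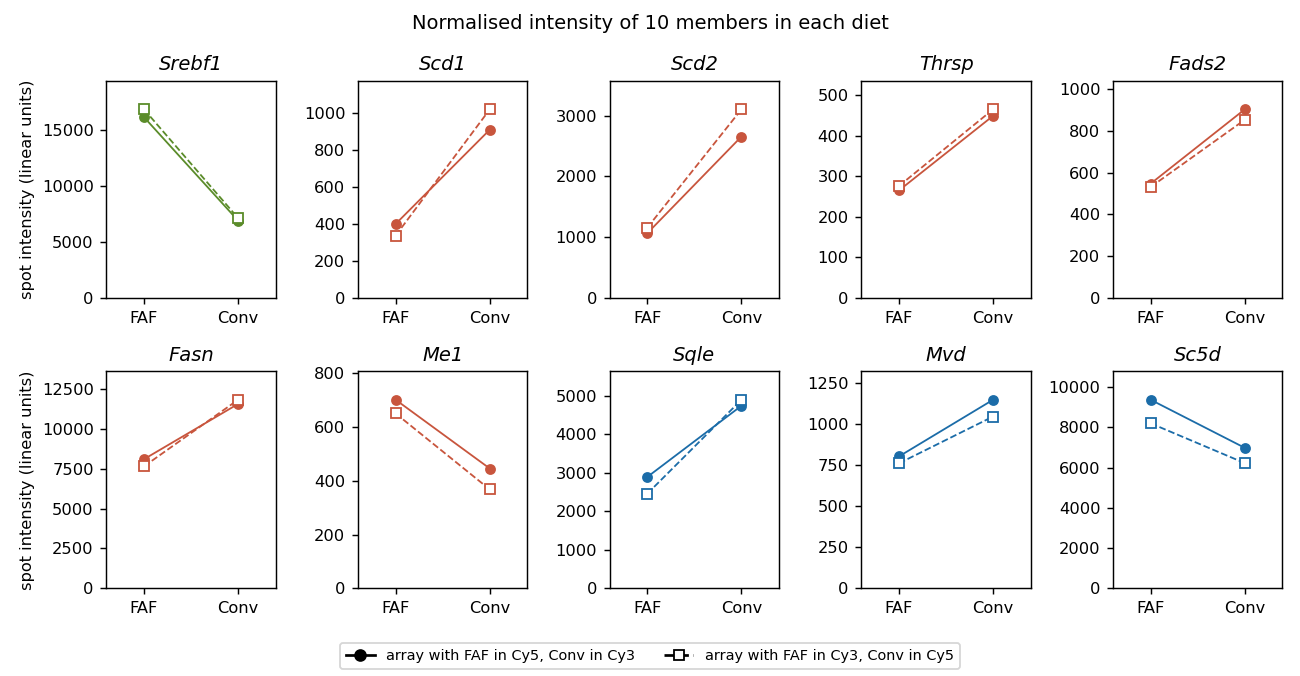
Normalised spot intensity (linear units, y axis from 0) of 10 members in FAF and Conv RNA, 1 line per array. In each panel both FAF values lie on the same side of both Conv values, above them for Srebf1, Me1 and Sc5d and below them for the other 7. Both values of a diet come from 1 RNA sample, so this is agreement between arrays and not between animals.

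Sterol synthesis genes differed less. Of 16 measured, 0 were higher and 0 were lower by the rule, 12 were below 0 and 4 above, and the median was -0.22. The ratios ran from -0.85 to 0.41. The 6 genes of the steps from HMG-CoA to farnesyl diphosphate were all below 0, with a median of -0.33. The 8 genes of the steps from squalene to cholesterol were mixed, 5 below and 3 above 0, with a median of -0.10.

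Hmgcs1, the HMG-CoA synthase of the cytosol, had 10102 and 10037 units in FAF and 12358 and 11403 in Conv, a ratio of -0.24 ± 0.05. Its other probes, at under 200 units, stood at 0.19 ± 0.24 and -0.03 ± 0.02. The mevalonate kinase Mvk had 309 and 312 units in FAF and 411 and 408 in Conv, a ratio of -0.40 ± 0.01, and its other probe gave -0.40 too. Pmvk, the phosphomevalonate kinase, had 2443 and 2356 units in FAF and 3024 and 3144 in Conv, or -0.36 ± 0.05. The decarboxylase Mvd had 803 and 761 units in FAF and 1148 and 1046 in Conv, with a ratio of -0.49 ± 0.03, the lowest of these 6. The isomerase Idi1 had -0.11 ± 0.03, with 0.23 on a dimmer probe, and the farnesyl diphosphate synthase Fdps had -0.29 ± 0.06, from 2856 and 2682 units in FAF and 3357 and 3423 in Conv. On the brightest probes of Hmgcs1 and Mvk, both FAF values lay below both Conv values. The diets overlapped on the dimmer Hmgcs1 probes, with 176 and 137 units in FAF and 131 and 141 in Conv on that at 0.19. Acat2, the thiolase that makes acetoacetyl-CoA ahead of these steps, had -0.20 ± 0.08.

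Sqle, the squalene epoxidase that inserts the first oxygen on the way to sterols, had the lowest ratio of the sterol genes. Its probe (mm9, chr15:59162384-59162443) read 2895 and 2461 units in FAF and 4746 and 4902 in Conv. The diets did not overlap, and the ratio was -0.85 ± 0.14, or 1.81-fold lower, short of the rule. The enzymes on either side of it were closer to 0, with the squalene synthase Fdft1 at -0.30 ± 0.02 and the lanosterol synthase Lss at 0.08 ± 0.02, whose other probes gave -0.22 and -0.11.

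Of the enzymes that turn lanosterol into cholesterol, the demethylase Cyp51 stood at -0.32 ± 0.12, and Nsdhl, of the removal of the methyl groups at C4, at -0.19 ± 0.14. Msmo1, the methyl sterol oxidase listed on the array as Sc4mol, had 11094 and 12087 units in FAF and 9934 and 9274 in Conv, a ratio of 0.27 ± 0.11. Msmo1 and Mvk both hold CCAAT boxes in the windows shown above and had ratios of opposite sign. Such boxes were found in 11 of 12 sterol genes searched, and their relation to the ratios was not tested. The desaturase Sc5d had 9372 and 8201 units in FAF and 6982 and 6223 in Conv, a ratio of 0.41 ± 0.01, with 0.52 on its other probe. It had the highest ratio of the sterol genes, at 1.33-fold. Dhcr7, the reductase of the last step, stood at -0.01 ± 0.03, and it was the only measured member whose sign differed between the arrays. Stard4, a carrier that moves cholesterol between membranes, had 7545 and 7779 units in FAF and 6143 and 6786 in Conv, a ratio of 0.25 ± 0.05, and its other probes gave 0.60 and 0.51.

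Set side by side, sterol synthesis genes had a median of -0.22 and fatty acid synthesis genes one of -0.41, a difference of 0.19. The difference was 0.27 on the array with FAF in Cy5 and 0.18 on the array with FAF in Cy3. The ranges overlapped, from -0.85 to 0.41 for sterol genes and from -1.39 to 0.74 for fatty acid genes. The medians lay closer, at -0.26 and -0.36, when Stard4 and Acat2 were left out of the sterol genes and Scd1 and Scd2 out of the fatty acid genes. With the lower limit of a mean of 1.5-fold and the same sign on both arrays, 1 sterol gene was lower, Sqle, and 0 were higher. By that limit 4 fatty acid genes were lower, Scd1, Scd2, Thrsp and Fads2, and 1 was higher, Me1. Over all measured genes, 3.6% were lower and 4.52% higher by the 1.5-fold limit. The difference between the sets rests on 1 RNA sample per diet and was not tested.

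**Figure D4:**
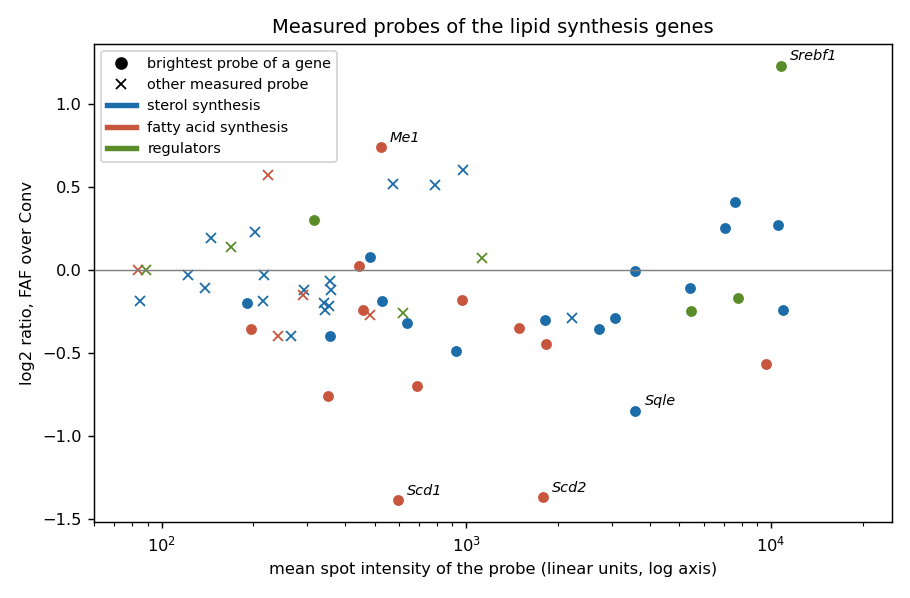
Log2 ratio of FAF over Conv (y axis) against mean spot intensity (x axis, log scale) for the 59 measured probes. Circles are the brightest probe of each gene and crosses the other probes. The crosses all lie nearer to 0 than the circles of 7 genes, Srebf1 at 1.23, Me1 at 0.74, Fads2 at -0.70, Thrsp at -0.76, Sqle at -0.85, Scd2 at -1.37 and Scd1 at -1.39.

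For 19 members more than 1 probe was measured, and for 15 of them all measured probes had 1 sign. The exceptions were Hmgcs1, Idi1, Lss and Srebf2. Scd1, Scd2, Sqle and Srebf1 have 1 probe each, so no other probe bears on their values.

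Other genes of the sterol pathway were mixed in sign, with 7 above 0 and 10 below. None of the 17 measured passed the rule in either direction, and the median was -0.14. Npc1l1, the transporter that takes up cholesterol from the lumen, stood at 0.71 ± 0.02, above every sterol synthesis member, with mean intensities of 25465 in FAF and 15621 in Conv.

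Of 20 other measured genes of fatty acid and triglyceride synthesis, 2 passed the rule, both of them higher in FAF, while the median lay at -0.02. The higher ones were Dgat2, which forms triglyceride, at 1.88 ± 0.05, and the acyl-CoA synthetase Acsl3 at 1.05 ± 0.08. Mlxipl, which encodes the lipogenic transcription factor ChREBP, stood at 0.58 ± 0.01, and was chosen with its value in view. In a list of LXR receptors, partners and targets, which also held the bile acid receptor gene Nr1h4, 3 of 10 were higher and 0 lower. Its median stood at 0.38. Those higher were the sterol exporters Abcg8 at 1.08 ± 0.04 with 0.71 on another probe, Abca1 at 1.07 ± 0.08 and Abcg5 at 1.07 ± 0.05. The 2 genes of the list below 0 were Nr1h4 at -0.58 ± 0.13 and Abcg1 at -0.23 ± 0.14, named with their values in view. Srebf1, as a known LXR target, had a ratio of the same sign as Abcg8, Abca1 and Abcg5. Scd1, another known LXR target, had the opposite sign. The part of LXR in any of these ratios was not tested.

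**Figure D5:**
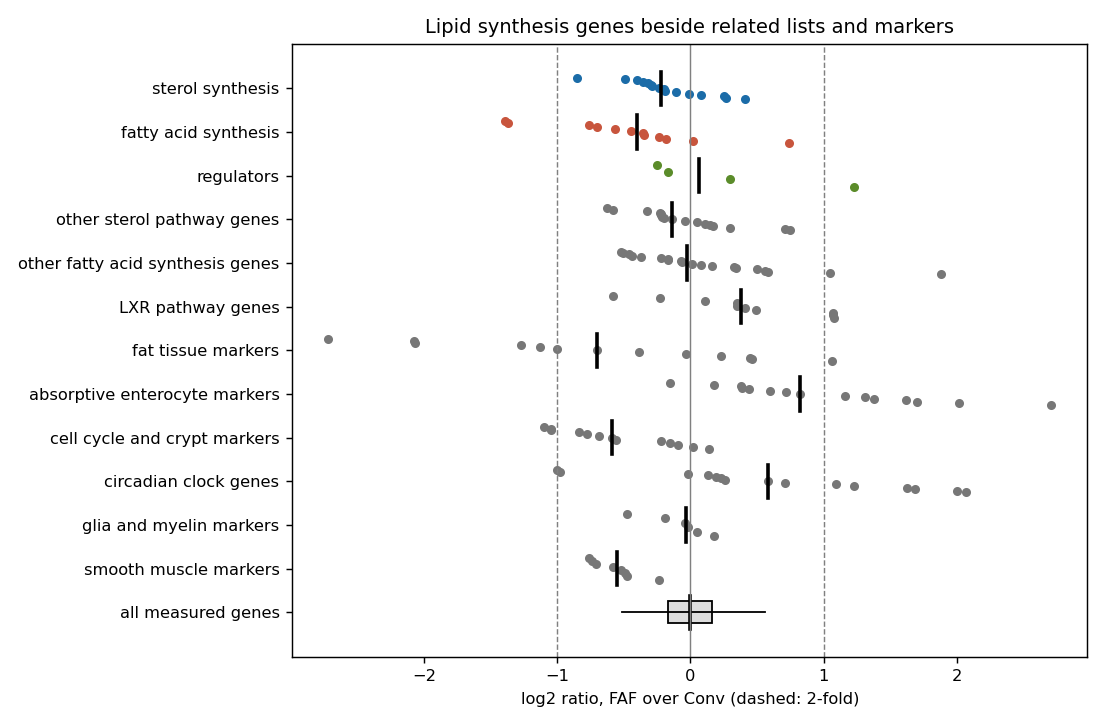
Log2 ratio of FAF over Conv (x axis) for each measured gene of the lists (y axis), with the median as a black bar. The box shows the quartiles of all measured genes, -0.17 and 0.16, and its line runs from the 5th to the 95th percentile, -0.51 to 0.56. Fatty acid synthesis has its median at -0.41, sterol synthesis at -0.22, fat tissue markers at -0.70 and enterocyte markers at 0.82.

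Marker genes of several cell types differed between the same RNA samples, and in whole tissue fewer cells of a type and less RNA per cell cannot be told apart. Fat tissue, a main site of Scd1, Fasn and Thrsp expression, had 5 of 13 measured markers lower and 1 higher, with a median of -0.70. By sign alone, 9 were below 0 and 4 above. Adiponectin, Adipoq, had a mean intensity of 191 in FAF and 805 in Conv (-2.08 ± 0.00), and the adipsin gene Cfd had 599 in FAF and 3952 in Conv (-2.72 ± 0.02). Car3 at -2.07 ± 0.00, Lpl at -1.27 ± 0.19 and Plin1 at -1.13 ± 0.04 were lower as well, though the other probes of Car3 and Lpl, at -0.55 and -0.72, were short of 2-fold. Cidec, a lipid droplet protein also made in enterocytes, was higher at 1.06 ± 0.11. Pparg at 0.46 ± 0.08, Lipe at 0.45 ± 0.05 and Pnpla2 at 0.23 ± 0.09 were above 0 too, short of the rule. They were named with their values in view. The summed intensity of the 13 markers was 27874 and 29288 in FAF and 30101 and 29539 in Conv. Most of this sum came from Cidec, with 11440 and 12363 in FAF and 5909 and 5504 in Conv, and Fabp4, with 7489 and 8288 in FAF and 10644 and 9987 in Conv. Fabp4, which did not pass the rule, was named here with its value in view. Lep and Ucp1 stayed under the limit for a measured gene. The part of fat tissue in the fatty acid synthesis ratios was not tested.

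Of 13 cell cycle and crypt markers, 3 were lower and 0 higher, and the median lay at -0.59. The 3 that passed are genes of mitosis. Cdc20 stood at -1.10 ± 0.12, Plk1 at -1.05 ± 0.13 and Ccnb1 at -1.05 ± 0.11. Among markers of crypt stem cells, chosen with their values in view, Lgr5 stood at 0.14 ± 0.06, Ascl2 at 0.02 ± 0.02, Axin2 at -0.15 ± 0.19, Olfm4 at -0.56 ± 0.13 and Smoc2 at -0.59 ± 0.03. The summed intensity of the 13 was 22527 and 22295 in FAF and 31763 and 34259 in Conv. Markers of absorptive enterocytes had 7 of 15 higher and 0 lower, with a median of 0.82 and a summed intensity of 1065761 and 1136335 in FAF and 516093 and 624065 in Conv. Among them Apoa4, of chylomicrons, stood at 2.71 ± 0.03 and Fabp1, which binds fatty acids, at 2.02 ± 0.14. The disaccharidases Sis, Lct and Treh stood at 1.70 ± 0.07, 1.62 ± 0.26 and 1.38 ± 0.07, and the alkaline phosphatase Alpi at 1.31 ± 0.10 with 0.93 on another probe. The enterocyte list was not uniform. Its lowest genes, named with their values in view, were Anpep at -0.15 ± 0.17, Cdh17 at 0.18 ± 0.12, Krt20 at 0.38 ± 0.20, Vil1 at 0.39 ± 0.09 and Fabp2 at 0.44 ± 0.23. Smooth muscle markers had 0 of 8 past the rule and a median of -0.55, with Synm at -0.76 ± 0.06 and Des at -0.74 ± 0.16, and a summed intensity of 61501 and 62055 in FAF and 97012 and 88555 in Conv. Glia and myelin markers, listed because Scd2 is expressed in the nervous system, had 0 of 6 past the rule and a median of -0.03, with Cnp at -0.48 ± 0.02 and S100b at -0.19 ± 0.00. Their summed intensity was 5056 and 4400 in FAF and 4455 and 5275 in Conv, and Gfap was not well above background. Circadian clock genes had 6 of 15 higher and 1 lower (Nfil3, chosen with its value in view), with a median of 0.58. Dbp was 4.01-fold higher, Hlf stood at 2.07 ± 0.06, Per2 at 1.69 ± 0.16 with 0.03 on another probe, Tef at 1.63 ± 0.02 with 0.28 to 0.75 on 3 other probes, Per1 at 1.23 ± 0.22 and Nr1d2 at 1.09 ± 0.17. No label states the time of day at which tissue was taken. The part of these cell types and of the hour in the ratios of the lipid genes was not tested.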

How the data were processed

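Spot intensity for each dye, with local background, came from the deposited scanner output, made per the file headers with Feature Extraction 11.5.1.1 (Agilent). The same files hold quality flags and a log10 ratio (red over green), which that software corrected for background and dye. The deposited value table equals this log10 ratio to within 5e-08. Probe positions are those of the files, in build mm9, whose annotation was not used here.

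Ratios were computed with limma 3.58.1 in R 4.3.3, by normexp background correction with an offset of 50 and loess within each array, control spots at weight 0. They were turned to FAF over Conv by the labelled dyes and averaged over the 2 arrays, which count as 1 replicate. Intensities printed are those after loess and quantile scaling of the mean intensities (Aquantile). They include the offset of 50, which is a large part of the value for dim probes. Control spots and outlier spots were left out. RefSeq names (GRCm38.p6) were found for 27660 probes by accession, and the rest keep the array's name, updated where it is the synonym of 1 gene. A gene was represented by its brightest measured probe. No p-value was computed, since each diet has 1 RNA sample. The normalisation and the rule of size were run on simulated data with known changes. The noise there was set from the spread between arrays, so variation among animals is not covered, and the outcome is not given here. The 11 alternatives covered background correction, normalisation, the source of the ratio, the filter, the probe rule, single arrays and the fold limit. The members and lists were chosen with earlier results of these data known. Named genes were all members and, of each other list, those past the rule (at most 6, the furthest from 0 first), or otherwise the 2 furthest from 0; others are marked in the text. Some genes of the other sterol pathway list are not reported here.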

Additional observations from a re-analysis of the deposited data

How the results depend on the processing

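With 1 RNA sample per diet no result has a test, and for dim probes the ratio is limited by their small signal over background, which the offset shrinks further. No paired analysis was possible because both arrays carry the same 2 RNA samples. Scd1, Scd2 and Srebf1 kept their sign under all 10 alternatives on the values, and Scd2 passed the rule under all of them, Scd1 and Srebf1 under 9. Not all of these alternatives could change them. Each gene has 1 probe, well above background in both diets, so the filters and the mean over probes left its value as it was. The value table repeats the software's ratio. With median centring in place of loess (correlation between arrays across genes 0.17, against 0.90), Scd1 and Srebf1 missed the limit on 1 array at -0.57 and 0.48, and 1 fatty acid gene and 82 genes in all were lower. Scd2 passed there with -0.60 on 1 array, close to the 1.5-fold limit. Of 320 member values under alternatives, 4 changed sign, in Idi1, Lss and Dhcr7. The sterol median was -0.28 with the software's ratio and with the value table, -0.15 with the mean over probes, and ran from -0.24 to -0.18 on single arrays. The fatty acid median was -0.53 with the software's ratio and with the value table, -0.44 without background correction, -0.47 with an offset of 10, -0.37 with median centring, -0.36 with no filter and -0.38 with the mean over probes, and ran from -0.45 to -0.42 on single arrays. The difference of medians was 0.25 with the software's ratio and with the value table, 0.14 with no filter on dim probes, and 0.18 to 0.27 on single arrays. The software's ratio and the value table called 487 genes higher and 348 lower. The 1.5-fold limit called 771 higher and 614 lower, with 1 sterol gene lower, 4 fatty acid genes lower and 1 higher. The causes of these shifts were not tested.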

Other observations

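Genes that supply NADPH and acetyl units to lipid synthesis did not share a sign. The cytosolic malic enzyme Me1 stood at 0.74 ± 0.08, while G6pdx and Pgd, of the pentose phosphate pathway, stood at -0.44 ± 0.09 and -0.17 ± 0.03. Slc25a1, the carrier that exports citrate from mitochondria, stood at 0.34 ± 0.00, and Acly, which cleaves that citrate, at -0.24 ± 0.01. Aacs, which makes acetoacetyl-CoA from ketone bodies, stood at -0.52 ± 0.00. None of these genes passed the rule of size, and, Me1 and Acly aside, they were chosen with their values in view.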
